A study of Mus musculus with 6 samples.

Results

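The miR-290 and miR-302 clusters, groups of microRNA (miRNA) genes known for their high levels in embryonic stem cells, were examined in the map of acetylated lysine 27 of histone H3 (H3K27ac) of mouse embryonic stem cells (ESCs). The members were chosen by gene symbol, as all genes of type miRNA in the GENCODE M21 annotation of GRCm38 (mm10) named Mir290 to Mir295, Mir302a to Mir302d or Mir367, with their lettered copies. Mir290 to Mir295 are called the miR-290 cluster here, and Mir302a to Mir302d with Mir367 the miR-302 cluster. The rule selected 14 of 2202 annotated miRNA genes, 9 in the miR-290 cluster and 5 in the miR-302 cluster. All control H3K27ac peaks within 50 kb of either cluster were taken with them, 8 of the 22973 peaks in the list, 5 around the miR-290 cluster and 3 around the miR-302 cluster.

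The series holds 6 H3K27ac ChIP-seq samples of a single line, E14Tg2A Rosa26-Cre Oct4-IRES-Puro, which carries Cre at Rosa26 and a puromycin resistance gene from Oct4 in every group and was grown without serum in N2B27 medium with leukemia inhibitory factor and inhibitors of MEK and GSK3. Control cells (2 samples) received DMSO, 2 samples received 100 nM NVP-2, an inhibitor of the elongation kinase CDK9, for 120 min, and 2 received actinomycin D, labelled as 800 nM, for 120 min. Chromatin of human HEK293 cells was added to all of them as a spike-in. The values below come from 1 list of control peaks that the authors pooled over both control samples, so there is no replicate error, no treated sample is compared and no test is given. The list gives only where each peak starts and ends, with no read count behind a peak, and a peak present in some of the cells cannot be told apart from one present in all of them.

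A miRNA gene is transcribed into a long primary transcript, from which Drosha and Dgcr8 cut a short hairpin and Dicer then cuts the mature strands, named 5p and 3p after their place in the hairpin. One strand guides an Argonaute protein to messenger RNAs that pair with the seed, the bases near the 5′ end of the miRNA, and those messages are then translated less or degraded. The miR-290 cluster is known as the main miRNA source of naive mouse ESCs and the miR-302 cluster for its expression in early embryos and primed pluripotent cells, and both are known to speed the passage of ESCs from G1 to S phase. H3K27ac marks nucleosomes of active promoters and enhancers, and very wide acetylated regions are typical of the enhancers of genes that define a cell type.

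The RefSeq table for GRCm38.p6 held 26 mature sequences for the 14 genes. Those of the 3p strands that carry the seed best known for the clusters are shown first, because the clusters lie on different chromosomes and yet share it. The capitals mark the seed, bases 2 to 8. All 5 sequences below have the seed AAGUGCU, which no other of the 1738 mature sequences compared has. The members miR-292a-3p and miR-302a-3p are not among the sequences compared. On its 3p side the hairpin of Mir302a holds the letters AAGUGCU and that of Mir292 AAGUGCC, so the counts of strands given here leave these out.
miR-291a-3p: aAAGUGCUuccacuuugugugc
miR-294-3p: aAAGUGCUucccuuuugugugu
miR-295-3p: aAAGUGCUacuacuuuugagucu
miR-302b-3p: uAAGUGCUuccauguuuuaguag
miR-302d-3p: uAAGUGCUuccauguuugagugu

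Behind the common seed the strands differed. miR-291a-3p and miR-294-3p had identical bases at 19 of 22 positions (86.4%) and miR-302b-3p and miR-302d-3p at 20 of 23, when aligned from their 5′ ends without gaps. The other same-seed pairs within the miR-290 cluster were less alike, with 15 of 22 (68.2%) for miR-291a-3p and miR-295-3p and 12 of 22 (54.5%) for miR-294-3p and miR-295-3p. Between the clusters the same-seed pairs ran from 13 of 22 positions (59.1%) for miR-294-3p and miR-302d-3p to 17 of 23 (73.9%) for miR-295-3p and miR-302d-3p. The ranges within and between the clusters overlapped, and the least alike of these same-seed pairs was within the miR-290 cluster. The seed made up most of what miR-294-3p and miR-302d-3p shared.

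Other 3p strands are shown because they lie next to that family without its exact seed. miR-290a-3p and miR-291b-3p differ from AAGUGCU at the last seed base. miR-302c-3p starts 1 base later, so that the same letters lie 1 position further towards its 5′ end and its seed reads AGUGCUU. miR-293-3p reads GUGCCGC there, and miR-367-3p belongs to a different seed family. The capitals again mark bases 2 to 8.
miR-290a-3p: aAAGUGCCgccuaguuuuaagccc
miR-291b-3p: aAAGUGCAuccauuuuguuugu
miR-302c-3p: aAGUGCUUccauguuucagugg
miR-293-3p: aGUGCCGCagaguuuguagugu
miR-367-3p: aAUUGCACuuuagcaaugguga

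The letters AAGUGC were found anywhere within 9 of the 12 members' 3p strands compared and in 20 of the 1738 mature sequences (1.15%). The 5p strands formed families of their own within each cluster. The seed CUCAAAC was shared by miR-290a-5p, miR-292a-5p and miR-293-5p, and the seed CUUUAAC by miR-302b-5p, miR-302c-5p and miR-302d-5p, with no other gene in the table carrying either. In all, the 26 strands held 16 different seeds. One 5p strand of each cluster is given, with bases 2 to 8 in capitals.
miR-290a-5p: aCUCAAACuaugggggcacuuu
miR-302b-5p: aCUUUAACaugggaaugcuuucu

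To show how the strands lie in their precursor, 3 hairpins of the miR-302 cluster are given, and the capitals mark the mature 5p and 3p strands. Mir302b spans chr3:127545228-127545301, Mir302d chr3:127545624-127545689 and Mir367 chr3:127545733-127545807, all on the plus strand of GRCm38.
Mir302b: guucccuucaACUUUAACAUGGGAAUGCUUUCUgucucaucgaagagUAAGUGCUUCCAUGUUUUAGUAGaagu
Mir302d: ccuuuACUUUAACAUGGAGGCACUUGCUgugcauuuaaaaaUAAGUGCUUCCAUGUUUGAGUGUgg
Mir367: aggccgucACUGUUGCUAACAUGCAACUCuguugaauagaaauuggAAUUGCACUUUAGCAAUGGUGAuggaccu

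All 14 members lay inside a control H3K27ac peak, whereas 300 of the 2202 annotated miRNA genes (13.6%, 95% Wilson interval 12.3 to 15.1, counting error only) overlapped one by at least 1 bp. The 14 genes are not independent of each other. The 9 genes of the miR-290 cluster shared 1 peak and the 5 of the miR-302 cluster another, so the count stands for 2 marked loci. Among the other 2188 miRNA genes 286 (13.1%) overlapped a peak, the median distance to the nearest peak was 26.8 kb and 628 (28.7%) lay farther than 100 kb from any peak. Counted once per locus, with miRNA genes within 10 kb of each other joined, 248 of 1802 loci (13.8%) overlapped a peak.

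The miR-290 cluster occupied 2216 bp at chr7:3218626-3220841. Its first hairpin, Mir290a (83 bp), lay at chr7:3218626-3218708, followed by Mir291a at chr7:3218919-3219000, Mir292 at chr7:3219189-3219270, Mir291b at chr7:3219482-3219560, Mir293 at chr7:3220343-3220422, Mir294 at chr7:3220641-3220724 and Mir295 at chr7:3220773-3220841, all on the plus strand. The other 2 genes, Mir290b at chr7:3218638-3218695 and Mir292b at chr7:3219198-3219259, lie on the minus strand inside Mir290a and Mir292, so each pair covers the same bases and a ChIP-seq peak cannot tell the strands apart.

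These hairpins overlap a gene of a different kind. Of the 9 hairpins 7 lay within the last exon, exon 10 of 10 at chr7:3218784-3222560, of Nlrp12, a member of the NOD-like receptor family of innate immunity that is transcribed from the minus strand. All 7 were inside its annotated 3′ untranslated region of 3692 bp at chr7:3218784-3222475, 6 on the strand opposite to Nlrp12 and Mir292b on the same strand. Mir290a and Mir290b lay just outside it. RefSeq places a long noncoding RNA, D7Ertd143e, on the plus strand at chr7:3218784-3221015. It starts 158 bp after the first base of the cluster, holds 6 of the hairpins on its own strand and was covered by the peak over its whole length.

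The peak that held the miR-290 cluster spanned 49455 bp, at chr7:3188971-3238425. It was the peak of rank 31 by width among 22973, wider than 99.9% of them. The median peak was 2068 bp wide and 70 peaks reached 40 kb. The authors joined peaks that lay close together. The peak over the cluster may thus hold short stretches without the mark, which the list cannot show. The cluster lay 29.7 kb from the lower end of this peak and 17.6 kb from its upper end. The longer part of this peak thus lay below the first hairpin, upstream of the plus-strand members. Apart from the hairpins, no transcription start site (TSS) of GENCODE was inside this peak, and Nlrp12 was the gene that overlapped it.

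The other 4 peaks lay on both sides. Below it, a peak of 10212 bp at chr7:3164053-3174264 held the TSS of AU018091, at a distance of 44.4 kb from the cluster, and a peak of 1602 bp at chr7:3183992-3185593 was 33.0 kb away. Above it, a peak of 1217 bp at chr7:3250975-3252191 lay at 30.1 kb, and a peak of 24388 bp at chr7:3260728-3285115, over the pseudogenes Gm20553 and Gm5340, at 39.9 kb. The gaps between neighbouring peaks were 9727, 3377, 12549 and 8536 bp, all longer than the distance at which the authors merged peaks. Together the peaks covered 68.0 kb, or 66.6%, of the cluster and 50 kb on each side. Of this, 36.9 kb lay below the cluster and 28.9 kb above it. Any gaps inside joined peaks count as covered in these values.

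The host gene did not share the mark at its promoter. The TSS of Nlrp12 (chr7:3249613) lay 1.36 kb from the nearest peak, and its promoter, taken as 1 kb on each side of the TSS, overlapped none, whereas 10674 of 21853 protein-coding promoters (48.8%, Wilson interval 48.2 to 49.5) did. The promoter of AU018091 was marked. The widest peak of the window therefore ran through the 3′ part of Nlrp12 and ended before its start, and 63.4% of the Nlrp12 body was covered by peaks.

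**Figure D1:**
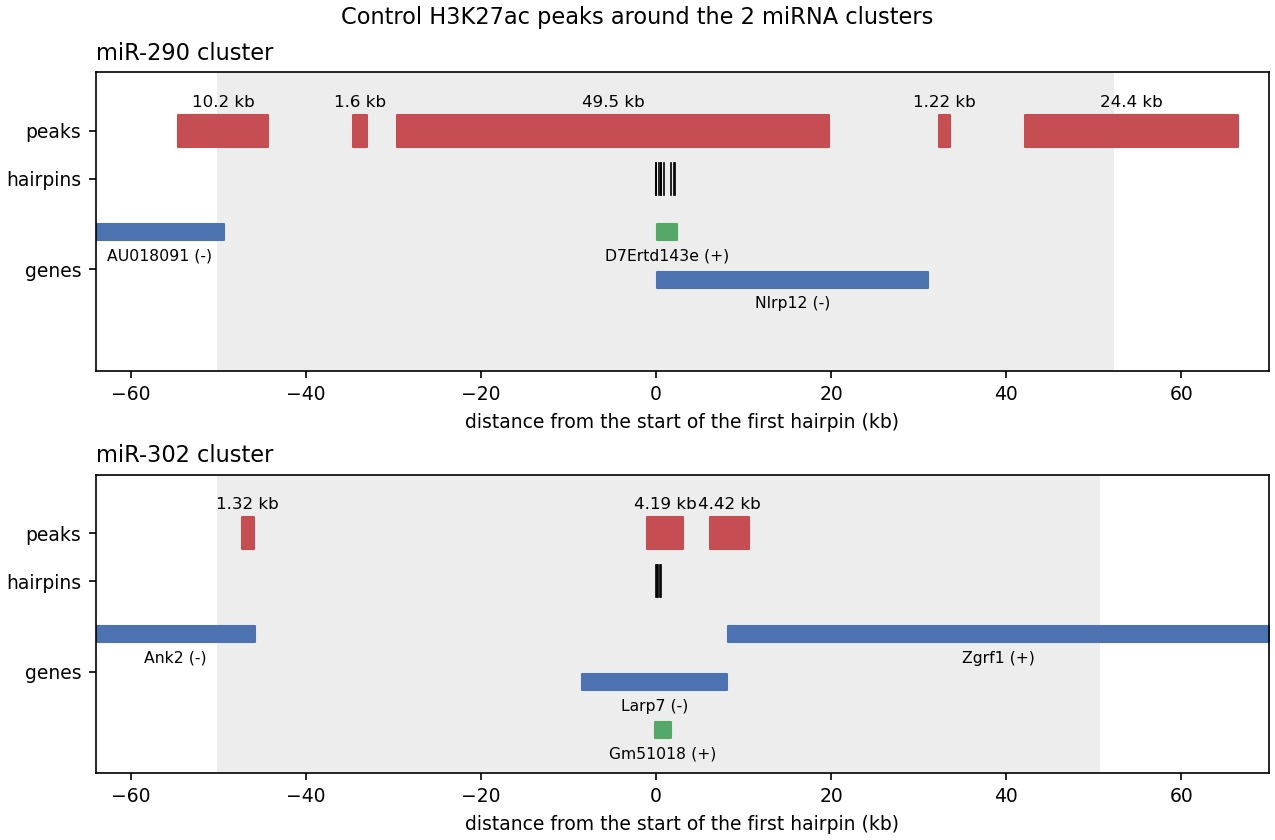
Maps of both clusters, with the distance from the start of the first hairpin in kb on the x axis. Red bars are control H3K27ac peaks with their widths, black lines the hairpins, blue bars protein-coding genes, green bars RefSeq long noncoding RNAs, and grey marks the cluster with 50 kb on each side; the miR-290 cluster lies in a peak of 49.5 kb and the miR-302 cluster in one of 4.19 kb.

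The miR-302 cluster was smaller, 580 bp at chr3:127545228-127545807, with all 5 genes on the plus strand. Mir302b is the first, followed by Mir302c at chr3:127545363-127545430, Mir302a at chr3:127545496-127545564, Mir302d and Mir367. All 5 hairpins lay in the intron between exon 8 (chr3:127545826-127545970) and exon 9 (chr3:127544154-127544278) of the 13 exons of Larp7, which is transcribed from the minus strand and encodes the La-related protein that holds the 7SK RNA. They were thus intronic and antisense to their host. Mir367, the last hairpin, lay next to exon 8 without reaching into it. RefSeq places a long noncoding RNA, Gm51018, on the plus strand at chr3:127545089-127546903, which starts 139 bp before Mir302b and holds all 5 hairpins.

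The peak over the miR-302 cluster spanned 4187 bp at chr3:127544162-127548348, with the cluster 1.07 kb from its lower end and 2.54 kb from its upper end. It was wider than 74.2% of the peaks and stood at rank 5920 by width. It covered all of Gm51018 and the start of a short Larp7 isoform with a retained intron, but not the main TSS of Larp7. That TSS (chr3:127553349) lay 8.12 kb above the first hairpin, in a second peak of 4417 bp at chr3:127551390-127555806, which also held the TSS of Zgrf1 on the opposite strand (chr3:127553489). The gap between the peak of the cluster and the peak of its host promoter was 3041 bp. The peak over the miRNA cluster was thus separate from that at the main TSS of its host, although it also held the start of the short Larp7 isoform.

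The last peak, of 1318 bp at chr3:127497926-127499243, lay 46.0 kb below the cluster near the TSS of Ank2, which encodes ankyrin-2. The 3 peaks covered 9.92 kb, or 9.86%, of the cluster and 50 kb on each side. In contrast to the miR-290 cluster, 44918 bp below the miR-302 peak held no peak at all.

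**Figure D2:**
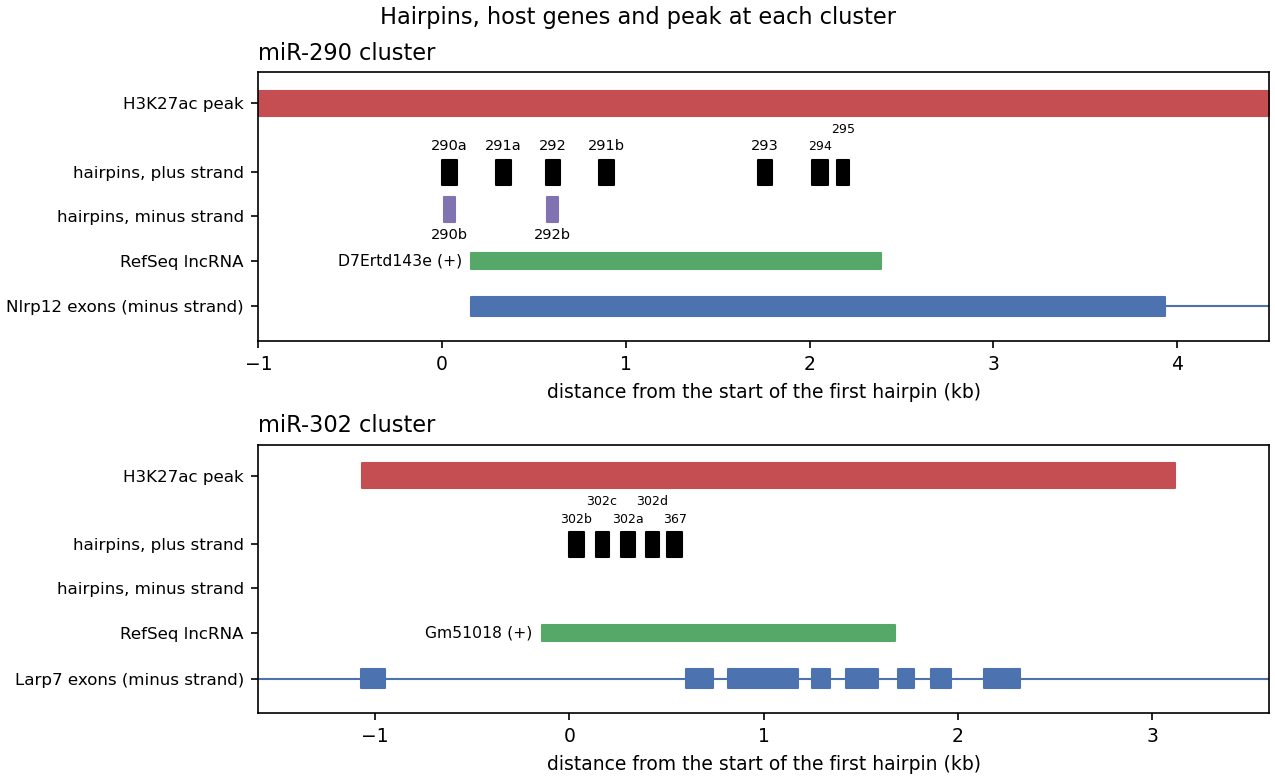
Close maps of the clusters, with the distance from the start of the first hairpin in kb on the x axis. Boxes are the peak (red), hairpins of the plus (black) and minus (purple) strand, the RefSeq long noncoding RNA (green) and exons of the host gene (blue); 7 of the 9 hairpins of the miR-290 cluster lie in the last exon of Nlrp12, and all 5 of the miR-302 cluster lie between 2 exons of Larp7.

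To place the clusters among other miRNA loci, the same windows were drawn around the 1800 other loci. The miR-290 window was covered more than 1795 of them (99.7%). The other loci had a median coverage of 2.51% and a 90th percentile of 24.2%, and 613 (34.1%) had no peak in the window. The 5 loci covered more than the miR-290 cluster, named after their values were seen, each hold a single gene: Mir8110 with 81.5%, Mir1905 with 80.6%, Gm44297 with 80.2%, Mir1983 with 75.1% and Mir1195 with 69.3%. The miR-302 window was covered more than 1325 of the other loci (73.6%). Its coverage was thus above the median of miRNA loci but below their 90th percentile.

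Among the 17 other loci of at least 4 miRNA genes, 12 had no gene in a peak, 2 had some and 3 had all. The 3 were Mir23b to Mir24-1 with 36.2% of the window covered, Mir363 to Mir106a with 21.2% and Mir17 to Mir92-1 with 5.25%. The loci nearest in coverage to the miR-290 cluster were Mir23b to Mir24-1, Mir23a to Mir3074-2 with 34.9% but 0 of 4 genes in a peak, and Mir363 to Mir106a. All 3 were below its 66.6%. Nearest to the miR-302 cluster were Mir450b to Mir322 with 8.60% and 3 of 7 genes in a peak, Mir770 to Mir136 with 12.8% and 0 of 16, and Mir99b to Mir125a with 6.12% and 1 of 4. At like coverage the miR-302 cluster thus differed from these 3 in having all of its genes inside a peak. Mir17 to Mir92-1, little farther away in coverage at 5.25%, also had all of its genes in a peak.

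**Figure D3:**
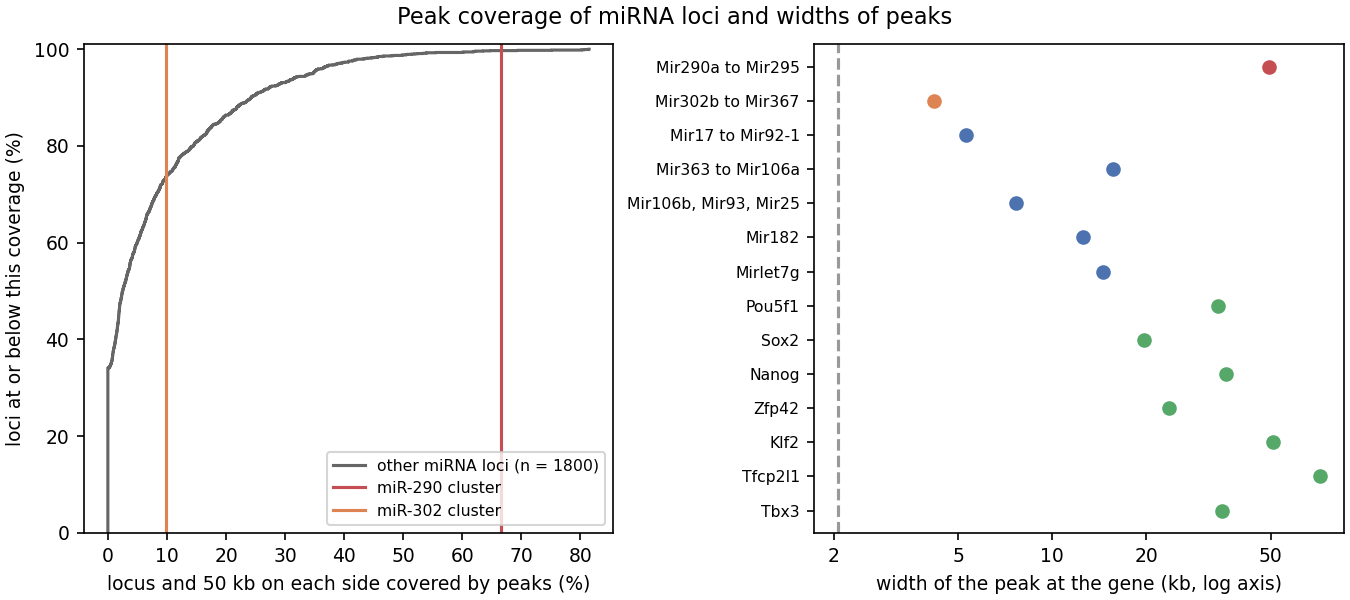
Left, the share of the 1800 other miRNA loci (y axis, %) at or below each coverage by control peaks in the locus and 50 kb on each side (x axis, %), with the miR-290 cluster (red line) at 66.6% and the miR-302 cluster (orange line) at 9.86%. Right, the width in kb, on a log axis, of the peak at the clusters (red, orange), at compared miRNA genes (blue) and at promoters of naive ESC genes (green), with the median of all peaks, 2068 bp, as a dashed line.

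The labelled cell type was checked against promoters of marker genes. Of 10 genes of the naive ESC state, 7 were marked (Wilson interval 39.7% to 89.2%, which includes the background of 48.8% of coding promoters), with peaks of 34.0 kb at Pou5f1, 36.0 kb at Nanog, 23.7 kb at Zfp42, 50.8 kb at Klf2, 71.8 kb at Tfcp2l1, 34.9 kb at Tbx3 and 19.7 kb at Sox2, which encode regulators or markers of pluripotency. Esrrb, Klf4 and Dppa3 were not marked within 1 kb of the TSS used. The peak over the miR-290 cluster was thus about as wide as that at Klf2. The peak over the miR-302 cluster was narrower than all 7. All of these widths were taken after the authors joined nearby peaks, so they may include gaps. Of 6 primed-state genes 4 were marked (66.7%, Wilson interval 30.0 to 90.3), with Fgf5 and Pou3f1 unmarked. Of 12 markers of other cell types Gata4, Gata6 and Sox1 were marked and 9 were not (Wilson interval 8.89% to 53.2%). Both intervals also include 48.8%, so the counts alone set none of the 3 lists apart from coding genes at large.

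The genes that share seeds with the members were then examined. miR-367-3p has the seed AUUGCAC, which it shares with the mature strands of 6 genes outside the clusters, Mir92b, Mir32, Mir25, Mir92-1, Mir363 and Mir92-2, and all 6 were marked, some by the same peak, beside 13.6% of all miRNA genes. Of these, 4 come from the 3 related loci Mir17 to Mir92-1, Mir363 to Mir106a and Mir106b to Mir25. miR-291b-3p shares its seed AAGUGCA with Mir350, which lay 40.4 kb from the nearest peak. Of the 11 mature miRNAs outside the clusters that hold AAGUGC, a set chosen after the values of the members were seen, 8 came from marked genes, again beside 13.6% (Mir17, Mir18, Mir20a, Mir20b, Mir93, Mir106a, Mir106b and Mir6380) and 3 did not (Mir105, Mir350 and Mir6383). Mir17, Mir18 and Mir20a share 1 peak, Mir20b and Mir106a another, and Mir93 and Mir106b a further one, so they are not separate observations. These are the same 3 related loci, which also hold most of the marked genes of the next list.

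Hairpins of other miRNA loci known to be active in ESCs or in many cells were marked for 19 of 24 genes (79.2%, Wilson interval 59.5 to 90.8), beside 13.6% of all miRNA genes. The 19 genes lay in 6 peaks, and the interval does not allow for genes that share a peak. The peaks were 5.30 kb wide at Mir17 to Mir92-1, 15.6 kb at Mir363 to Mir106a, 7.68 kb at Mir106b, Mir93 and Mir25, 4.51 kb at Mir130b and Mir301b, 12.5 kb at Mir182 and 1.79 kb at Mir148a. The unmarked genes Mir183 (0.344 kb), Mir96 (0.530 kb), Mir15b (0.614 kb), Mir16-2 (0.744 kb) and Mir21a (1.58 kb) all lay close to a peak. The peak over the miR-290 cluster was wider than each of these 6 peaks, and that over the miR-302 cluster was wider only than the one at Mir148a.

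Of 27 miRNA genes known from other cell types, 4 were marked (14.8%, Wilson interval 5.92 to 32.5). These were Mir124a-1 and Mir9-3, known from neurons, and Mir143 and Mir145a, known from smooth muscle, which share a peak. Among the 11 let-7 genes, whose mature miRNAs rise as ESCs differentiate, Mirlet7g and Mirlet7i were marked (18.2%, Wilson interval 5.14 to 47.7). The share for both lists was near the background of 13.6%.

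Genes of the proteins that make and use the members' miRNAs were marked at their promoters. All 9 biogenesis genes, Drosha, Dgcr8, Xpo5, Dicer1, Tarbp2, Prkra, Srsf3, Ddx5 and Ddx17, and all 7 effector genes, Ago1 to Ago4 and Tnrc6a to Tnrc6c, overlapped a peak, beside 48.8% of protein-coding promoters. With lists this short the Wilson intervals reached down to 70.1% and 64.6%. The peak at Dgcr8 (16.4 kb), which encodes the partner of Drosha, was the widest of these 16 and that at Ago4 (0.491 kb) the narrowest. Of 6 genes that control let-7, Lin28a, Tut4, Tut7, Dis3l2 and Trim71 were marked and Lin28b, 107.6 kb from a peak, was not (83.3%, Wilson interval 43.6 to 97.0, which includes 48.8%). Trim71, a let-7 target that is high in ESCs, lay in a peak of 59.1 kb.

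Genes reported as targets of the clusters' miRNAs, many of which slow the cell cycle or promote differentiation, were marked at 11 of 18 promoters (61.1%, Wilson interval 38.6 to 79.7), an interval that includes the background of 48.8%. Marked examples were Cdkn1a (11.0 kb), which encodes the cyclin-dependent kinase inhibitor p21, Lats2 (1.66 kb), a kinase of the Hippo pathway, Btg2 (8.65 kb), an antiproliferative factor, and Tgfbr2 (1.45 kb), a TGF-beta receptor. Rbl2 (8.66 kb from the nearest peak), Lefty1 (1.18 kb), Lefty2 (2.33 kb), Nr2f2 (4.53 kb), Akt1 (4.32 kb), Dkk1 (2.34 kb) and Fbxl5 (2.34 kb) were not marked at the TSS used. An acetylated promoter says nothing of how much of a target's message or protein remains, and neither was measured here.

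**Figure D4:**
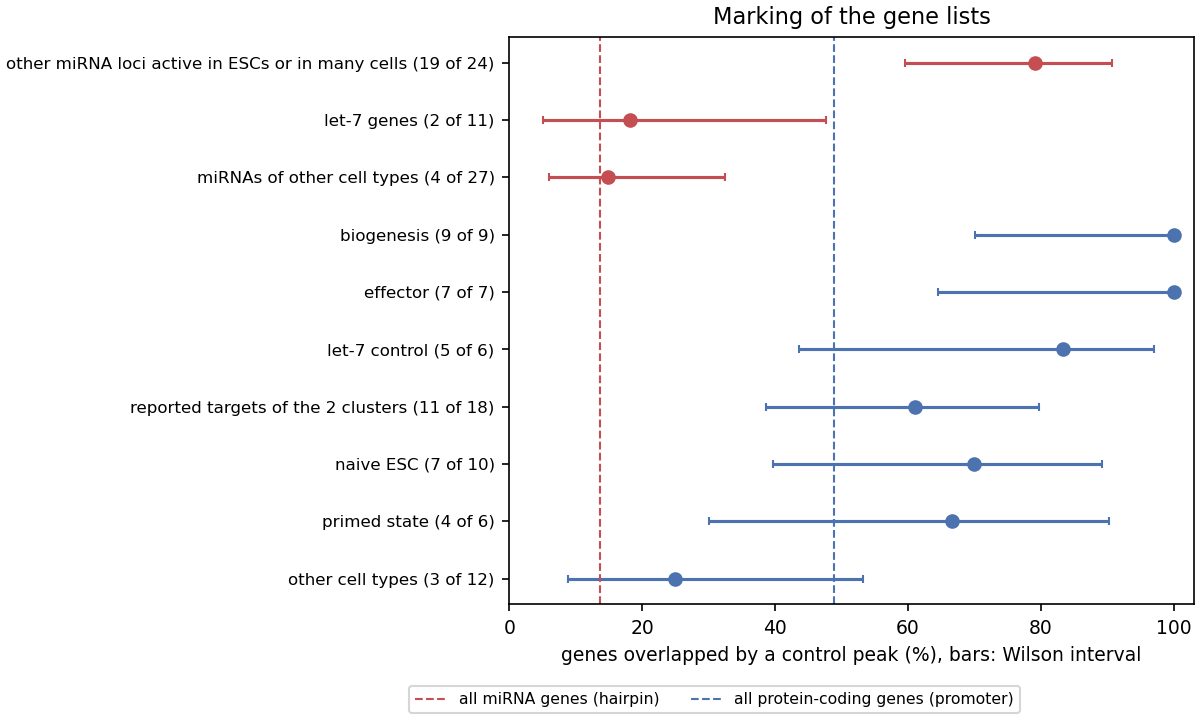
Share of each gene list overlapped by a control peak (x axis, %), for miRNA hairpins (red) and promoters of protein-coding genes (blue). Points are shares, bars 95% Wilson intervals, numbers in the labels are marked genes of all genes in the list, and dashed lines show the background of 13.6% of miRNA genes and 48.8% of coding promoters.

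The peak over the miR-290 cluster had a GC content of 45.5%, and 22.1% of peaks had a lower one, while the peak over the miR-302 cluster had 41.7%, with 5.67% of peaks lower, beside a median of 49.5% over all peaks. The ratio of observed to expected CpG was 0.199 and 0.258 respectively, with a median of 0.299, and 23.9% and 41.2% of peaks had a lower one. Repeats (soft-masked bases) made up 43.0% of the peak over the miR-290 cluster, more than in 92.5% of peaks, and 24.0% of that over the miR-302 cluster, more than in 66.8%, with a median of 17.5%. The authors removed reads of low mapping quality, and what this did to the borders of the wider peak was not tested. RefSeq promoters are windows of 300 bases around the start, shorter than the promoters of 1 kb on each side that were set against peaks. Those of the host Larp7 (GC 61.7%, 30 CpG) and of its neighbour Zgrf1 (61.3%, 34 CpG) had a higher GC content and lay wholly in their own peak.

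Short motifs of factors known in ESCs were searched on both strands. The octamer bound by Pou5f1, read as ATGCAAAT, was found in 1.74% of 32851 RefSeq promoters of 300 bases. The core of the composite Oct-Sox element, TTGTNATGC, which shares letters with the octamer and may overlap it, was found in 0.731% of them. For the Sox factors ACAATGG was used (3.66% of promoters), and for the orphan nuclear receptor Esrrb TCAAGGTCA (0.423%). Klf factors were represented by GGGNGTGG (17.6%) and Stat3 by TTCCNGGAA (1.15%), which is its own reverse complement. Tcf7l1, a repressor downstream of Wnt signalling, was represented by CTTTGAA (5.14%), and the TATA box of core promoters by TATAAA (13.6%). A match is a run of letters and not evidence of binding.

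In the peak over the miR-290 cluster there were 3 octamers, 1 Oct-Sox core, 3 Sox, 1 Esrrb, 22 Klf, 5 Stat3, 17 Tcf7l1 and 24 TATA matches. The Stat3 letters occurred at 0.101 per kb, above each of 57 other peaks of like width (from 0.8 of its width to its width divided by 0.8), whose median was 0.0249 per kb, and beside 0.0373 per kb over all peaks. The Sox letters, at 0.0607 per kb, were less dense than the median of 0.132 per kb of the same peaks, and only 1.75% of these peaks had a lower density. Both comparisons were singled out after the values of 8 motifs were seen. Stat3 is the factor through which leukemia inhibitory factor, present in the medium, acts in ESCs.

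The 5 Stat3 matches of that peak are printed from the GRCm38 plus strand with 10 bases on each side and the match in capitals. They span chr7:3194092-3194120, chr7:3196014-3196042, chr7:3199043-3199071, chr7:3201466-3201494 and chr7:3220900-3220928, in this order.
match 1: ggaggcaaccTTCCAGGAAcatggagagg
match 2: ggaggcagctTTCCAGGAAaatggagaca
match 3: tgaagcagtcTTCCAGGAAcacggagagg
match 4: cccgcattatTTCCTGGAAcctgggcaat
match 5: agatgaaggtTTCCTGGAActgggacatg

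Matches 1 to 4 lay 24.5, 22.6, 19.6 and 17.2 kb below the cluster and match 5 lay 0.069 kb above Mir295. Match 1 and match 2 had the same letter at 15 of the 20 flanking positions, match 1 and match 3 at 15 and match 2 and match 3 at 12, and match 5 had the same letter as matches 1, 2 and 3 at 10, 10 and 11. Match 4 had the same letter as each other match at 4 to 7 of 20. The flanks of matches 1 to 3 were thus the most alike, and these 3 cannot be counted as independent occurrences of the letters. Match 5, at up to 11 of 20 beside 12 for match 2 and match 3, was little less alike, and whether it is independent was not tested. None of the 5 was in a soft-masked repeat. When the peak was aligned to itself, soft-masked bases, 43.0% of it, could not start an alignment, so repeats within them may be missed. This search found 1 pair of stretches of at least 200 bp and 80% identity. The pair was 209 bp long in the alignment at 85.2% identity and made up 0.829% of the peak. Its stretches lay at bases 6594 to 6797 and 9764 to 9969 of the peak, shortly below match 2 and match 3 respectively. Neither stretch held a Stat3 match. Of the 57 peaks of like width 14 had more and 43 had less, with a maximum of 6.44%.

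The peak over the miR-302 cluster held 2 Klf and 5 TATA matches and none of the other 6 motifs. The TATA letters occurred at 1.19 per kb, more than in 85.8% of 3005 peaks of like width. That density is close to the 1.24 per kb of whole chromosomes, whereas all peaks had 0.655 per kb. One of these matches lay in the 300 bases before the first hairpin of the cluster.

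**Figure D5:**
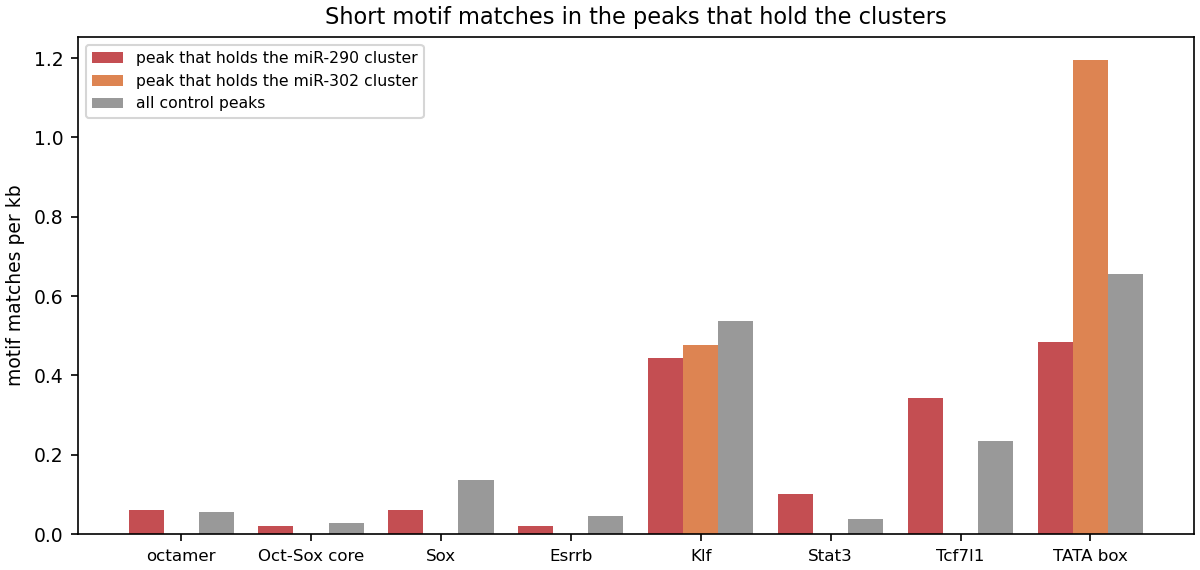
Matches of 8 short motifs per kb (y axis, from 0) in the peak that holds the miR-290 cluster (red), in the peak that holds the miR-302 cluster (orange) and over all control peaks (grey). Stat3 matches stand at 0.101 per kb in the first peak and TATA matches at 1.19 per kb in the second, and 6 motifs have no match in the second.

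The 300 bases before the first hairpin of each cluster are given from the GRCm38 plus strand, since both lie inside the peaks and lead into the hairpins on the strand of the members. The window before Mir302b, at chr3:127544928-127545227, has a GC content of 44.7% and 6 CpG. Capitals mark its TATA match at chr3:127545059-127545064, which starts 169 bases before the hairpin and 30 bases before the RefSeq start of Gm51018. The window before Mir290a, at chr7:3218326-3218625, has a GC content of 43.7%, 8 CpG and no match to any of the 8 motifs, so it has no capitals.
before Mir302b: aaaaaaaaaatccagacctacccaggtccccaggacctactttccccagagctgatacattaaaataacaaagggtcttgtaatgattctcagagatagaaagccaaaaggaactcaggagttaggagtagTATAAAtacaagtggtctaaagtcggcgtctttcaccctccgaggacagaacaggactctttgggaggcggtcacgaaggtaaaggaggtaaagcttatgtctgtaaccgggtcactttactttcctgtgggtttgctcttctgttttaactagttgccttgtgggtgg
before Mir290a: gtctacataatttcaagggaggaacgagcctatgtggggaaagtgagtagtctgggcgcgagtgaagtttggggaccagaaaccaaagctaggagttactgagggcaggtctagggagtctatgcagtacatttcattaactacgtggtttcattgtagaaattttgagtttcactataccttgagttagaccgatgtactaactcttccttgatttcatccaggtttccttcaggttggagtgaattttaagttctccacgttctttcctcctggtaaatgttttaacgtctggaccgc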

How the data were processed

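H3K27ac ChIP-seq was performed in 6 samples, 2 each of control, NVP-2 and actinomycin D. Per the paper's methods and the labels, the authors trimmed adapters with Cutadapt, aligned reads to mm10 together with the human T2T-CHM13 genome with bwa meme, and dropped duplicates (Picard 2.9.1) and reads of low mapping quality (samtools 1.4). They called peaks with LanceOtron, joined those within 2 kb (Bedtools), and kept peaks that passed height thresholds and lay near an ATAC-seq summit. The deposited control list holds peak starts and ends in base pairs, pooled over both control replicates, with no height, score or count. Peaks below the thresholds cannot be told apart from regions without signal. The treated samples and the tables of peak changes were not used here.

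Peaks were intersected with GENCODE M21 (an earlier release than the one the paper names), RefSeq GRCm38.p6 and the GRCm38 genome. Overlap meant at least 1 bp, promoters set against peaks were 1 kb on each side of the start of the isoform that spans the most genome, RefSeq promoters, used for base composition and motifs, were windows of 300 bases, and miRNA genes within 10 kb of each other formed 1 locus. Wilson intervals are at 95%. Mature miRNAs were matched by symbol. Of the let-7 control list, Zcchc11 and Zcchc6 are older names of Tut4 and Tut7 and were not counted again. Members, lists and motifs were chosen with earlier results of these data known. Text names all members, all peaks within 50 kb and the nearest genes, genes that share a seed with a member, the 3 loci of at least 4 genes nearest in coverage to each cluster, and list members where few were marked or unmarked; examples beyond these were chosen after their values were seen. Alternatives were windows of 20 and 100 kb, peaks of at least 1 kb, other joining distances, other overlap rules and autosomal peaks. The interval functions were tested on simulated data, and 2000 of 2000 windows over 300 peaks were right. Peaks were aligned to themselves with blastn 2.17.0. Python 3.11.15, numpy 2.4.6, pandas 2.3.3, scipy 1.17.1, pysam 0.24.0 and matplotlib 3.10.9 were used.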

Additional observations from a re-analysis of the deposited data

How the results depend on the processing

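All 9 members of the miR-290 cluster and all 5 of the miR-302 cluster were in a peak under each of the 4 other overlap rules and peak minimums tried. None of these could drop a member, because each hairpin lay at least 1.07 kb inside a peak of 49455 or 4187 bp. Of 43 alternatives over 11 results 29 kept the value and 14 moved it, where a count was kept within 1.5 times, a share within the 95% Wilson interval of the value reported and a coverage to 3 significant digits. The 29 include alternatives that could not move the value. These are the overlap rules above, and the minimum of 1 kb for peak numbers and coverages, since the narrowest nearby peak had 1217 bp. A window of 20 kb held 1 peak at the miR-290 cluster and raised the coverage to 94.3% at the miR-290 cluster and 21.2% at the miR-302 cluster, and 99.9% and 85.7% of other miRNA loci were then covered less. A window of 100 kb gave a coverage of 51.7% and 9.19%, and 70.7% of other loci were covered less than the miR-302 cluster. Among loci of at least 4 genes the shares covered less were 100% (17 of 17) for the miR-290 cluster and 70.6% for the miR-302 cluster. The widest peak near the miR-302 cluster, wider than 75.7% of all peaks, was wider than 76.4% of autosomal peaks, and the widest within 100 kb was wider than 90.2%. The share of all miRNA genes near a peak rose to 16.8% at a reach of 1 kb and 35.4% at 10 kb. No paired analysis was possible because the control samples were pooled into 1 list and no test was made. No replicate could be left out for the same reason. The list gives no read counts, so borders and widths carry no error, and a gene without a listed peak may have had signal below the authors' thresholds.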
